A study of Homo sapiens with 19 samples.

Results

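The genes described here are 4 carbonic anhydrase genes, CA9, CA12, CA2 and CA13, and the bicarbonate transporter gene SLC4A7. They were taken by symbol from a table of raw RNA-seq counts for 23441 gene symbols, over all 9 libraries of the table, and all 5 were found and passed the filter on low counts. Called peaks near their start sites were taken from 7 ChIP-seq lists of the same cells. The cells are 786-O, an established line from a human clear cell renal carcinoma that lacks functional VHL protein, so that HIF-α subunits escape degradation in normal culture. Pools of these cells were infected with lentivirus carrying the empty vector pRRL (control cells), HIF-1α (HIF-1α re-expressing cells) or HIF-2α (HIF-2α overexpressing cells). The vectors were bicistronic, with EGFP after the cDNA, and the inserts were wild-type cDNAs. All 3 pools keep their own HIF-2α, and the study describes their own HIF1A transcripts as truncated. RNA was measured in 3 libraries per pool, and chromatin in 1 library per antiserum and pool.

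Carbonic anhydrases are enzymes that convert carbon dioxide and water to bicarbonate and a proton, and back. CA9 and CA12 are membrane enzymes with the catalytic domain outside the cell, whereas CA2 and CA13 are cytosolic. SLC4A7 encodes NBCn1, which carries sodium and bicarbonate into the cell and so counters acid load. CA9 is widely used as a marker of HIF activity in kidney tumours, and HIF binds the core letters RCGTG as a dimer of an α subunit with HIF-1β. Cells that make much acid by glycolysis pair such enzymes with transporters that move protons or bicarbonate across the membrane.

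The peaks are shown first, because they show where HIF subunits were called at these genes. Each list holds windows of 2500 bp without a score, so the midpoint of the window stands for its summit, and the depth of the ChIP libraries is not known. All positions are on GRCh37. CA9 lies on the plus strand at chr9:35673925-35681156, CA12 on the minus strand at chr15:63613577-63674045 and SLC4A7 on the minus strand at chr3:27414212-27525911. CA2 and CA13, on the plus strand of another chromosome, are described after them. The promoters of CA9, CA12 and SLC4A7 are printed as examples, from 250 bases before to 50 bases after the start. They are as given by RefSeq (GRCh38.p14), and each matched GRCh37 once within its locus. They lie at chr9:35673675-35673974, chr15:63673996-63674295 and chr3:27525826-27526125, and are given 5′ to 3′ in the direction of transcription. Capitals mark ACGTG or GCGTG on either strand, so that CACGT and CACGC are the same letters on the other strand.
CA9 promoter: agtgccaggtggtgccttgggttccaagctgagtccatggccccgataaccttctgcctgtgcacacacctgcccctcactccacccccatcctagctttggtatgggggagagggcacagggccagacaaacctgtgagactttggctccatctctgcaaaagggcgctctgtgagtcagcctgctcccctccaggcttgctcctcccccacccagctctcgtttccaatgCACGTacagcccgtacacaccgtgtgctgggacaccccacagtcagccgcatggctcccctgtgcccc
CA12 promoter: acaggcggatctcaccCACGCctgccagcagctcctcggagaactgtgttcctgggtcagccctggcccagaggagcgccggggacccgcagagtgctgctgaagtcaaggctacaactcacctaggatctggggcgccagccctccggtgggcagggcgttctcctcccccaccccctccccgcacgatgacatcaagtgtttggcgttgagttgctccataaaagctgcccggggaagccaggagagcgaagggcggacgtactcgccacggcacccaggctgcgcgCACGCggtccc
SLC4A7 promoter: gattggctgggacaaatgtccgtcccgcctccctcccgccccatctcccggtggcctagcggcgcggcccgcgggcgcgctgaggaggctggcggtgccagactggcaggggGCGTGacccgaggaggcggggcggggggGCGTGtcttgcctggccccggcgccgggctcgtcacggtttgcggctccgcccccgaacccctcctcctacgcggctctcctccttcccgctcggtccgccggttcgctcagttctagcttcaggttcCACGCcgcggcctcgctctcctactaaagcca

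Positions are counted from the start site, with negative numbers before it. In the CA9 promoter the single match to the core began at -18, and the letters TGAGTCA, which match AP-1, began at -77. The CA12 promoter held matches at -234 and 40. The SLC4A7 promoter held 3, at -138, -110 and 19. Of 35116 promoters of the same length in the RefSeq table, 48.4% held ACGTG or GCGTG on either strand and 4.95% held TGACTCA or TGAGTCA. The letters are common, and a match is no evidence of binding.

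CA9 had peaks at its start site in 3 of the 7 lists. The midpoint of the HIF-1α peak in the HIF-1α re-expressing cells lay 5 bp from an annotated start, that of the HIF-1β peak in the same cells 123 bp, and that of the HIF-1β peak in the control cells 48 bp. No HIF-2α list had a peak within 10 kb. The nearest HIF-2α peak of the HIF-2α overexpressing cells was 154.8 kb away, that of the HIF-1α re-expressing cells 243.7 kb and that of the control cells 1452 kb. A separate site 15.6 to 16.5 kb upstream, whose nearest start sites belong to CCDC107 and RMRP, had a peak in 4 lists, namely HIF-1α and all 3 of HIF-1β.

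CA12 was the one gene of the 5 with peaks within 10 kb in all 7 lists. A site at the 5′ end, with midpoints 0.223 to 0.857 kb inside the gene, was called in 5 lists, that is in all 3 of HIF-1β, in HIF-1α and in HIF-2α of the HIF-2α overexpressing cells. Neither of the remaining HIF-2α lists held it. Windows of any lists that share a base were joined into a site. An intronic site joined in this way, with midpoints 7.56 to 9.92 kb inside the gene, held windows of all 7 lists. The HIF-1β midpoint of the control cells, at 7.56 kb, lay apart from the others, at 9.14 to 9.92 kb. It had no match to the core within 150 bp, so the windows of this site need not mark the same summit. A further intronic site at 19.3 to 19.5 kb was called in 6, all but HIF-1β of the HIF-1α re-expressing cells. One more, 38.5 kb inside the gene and 1.26 kb from an internal start site, was called for HIF-2α in the HIF-2α overexpressing cells alone. The 300 bases around the HIF-2α midpoints of the control cells are printed for the intronic sites shared by most lists, because HIF-2α was called there in every pool. They lie at chr15:63664691-63664990 and chr15:63654433-63654732 (GRCh37, minus strand, 5′ to 3′), with the same letters in capitals.
CA12 intronic site near: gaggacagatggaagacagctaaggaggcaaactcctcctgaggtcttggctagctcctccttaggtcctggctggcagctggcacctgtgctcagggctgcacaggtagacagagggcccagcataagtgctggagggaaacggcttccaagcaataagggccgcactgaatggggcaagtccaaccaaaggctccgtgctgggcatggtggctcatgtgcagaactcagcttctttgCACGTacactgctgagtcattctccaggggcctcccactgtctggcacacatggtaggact
CA12 intronic site far: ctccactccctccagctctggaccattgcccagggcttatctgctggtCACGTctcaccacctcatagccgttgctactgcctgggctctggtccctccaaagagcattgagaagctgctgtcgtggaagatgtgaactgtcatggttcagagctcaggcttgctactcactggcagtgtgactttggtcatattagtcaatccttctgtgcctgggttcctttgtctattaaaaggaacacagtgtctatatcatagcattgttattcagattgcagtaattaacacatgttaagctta

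The nearer intronic window held 1 match to the core, at base 240, and TGAGTCA at base 252. The farther window held 1 match at base 49 and no AP-1 letters. Over the 24 peaks within 10 kb of the 5 genes, 21 held the core within 150 bp of the midpoint and 5 held TGACTCA or TGAGTCA. Of these 5, 3 were at the nearer intronic site of CA12 and 2 at the start of CA9. Over whole lists the core was present in 45.7% to 68.2% of peaks, and in 59.3% of windows of the same length at start sites of the genes tested, so the share among these peaks cannot be read as particular to HIF sites. AP-1 letters were present in 24.7% to 27.5% of peaks in the HIF-2α lists, in 7.73% of HIF-1α peaks and in 3.57% of start site windows.

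CA2 lies at chr8:86376197-86393722 and CA13 at chr8:86132816-86196302. CA2 had peaks at its start in 4 lists, namely HIF-1β in control cells, both lists of HIF-1α and HIF-1β in cells with HIF-1α, and HIF-2α in cells with HIF-2α. Their midpoints lay 0.021 to 0.509 kb upstream, where the antisense gene CA3-AS1 also starts, and 3 of the 4 were nearer to its start than to that of CA2. CA13 had peaks at its start in HIF-1β of the control cells and in HIF-1α, 0.104 to 0.208 kb upstream and nearer to the start of its divergent neighbour RBIS. A HIF-2α peak of the HIF-2α overexpressing cells lay 25.2 kb inside CA13, 0.365 kb from an internal start site. It was nearer, at 0.106 kb, to a start of the antisense gene ENSG00000258256. SLC4A7 had 1 peak, of HIF-1β in the HIF-1α re-expressing cells, with its midpoint 0.216 kb from the nearest start. The HIF-1α list of the same cells had no peak closer than 864.5 kb.

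Peaks near start sites are common in these lists. Of 13767 genes tested for expression and found in the annotation, 25.7% had a HIF-1β peak of the control cells within 10 kb, 34.6% a HIF-1α peak and 40.8% a HIF-1β peak of the HIF-1α re-expressing cells, and in each of these lists 4 of the 5 genes had one. The share was 14.5% for HIF-2α of the HIF-2α overexpressing cells, with CA12, CA2 and CA13, and 16.2% for HIF-1β of those cells, with CA12. It was 5.32% for HIF-2α of the control cells and 4.21% for HIF-2α of the HIF-1α re-expressing cells, where CA12 was again the single gene of the 5. With 1 library per antiserum and pool, no difference between lists can be tested.

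**Figure D1:**
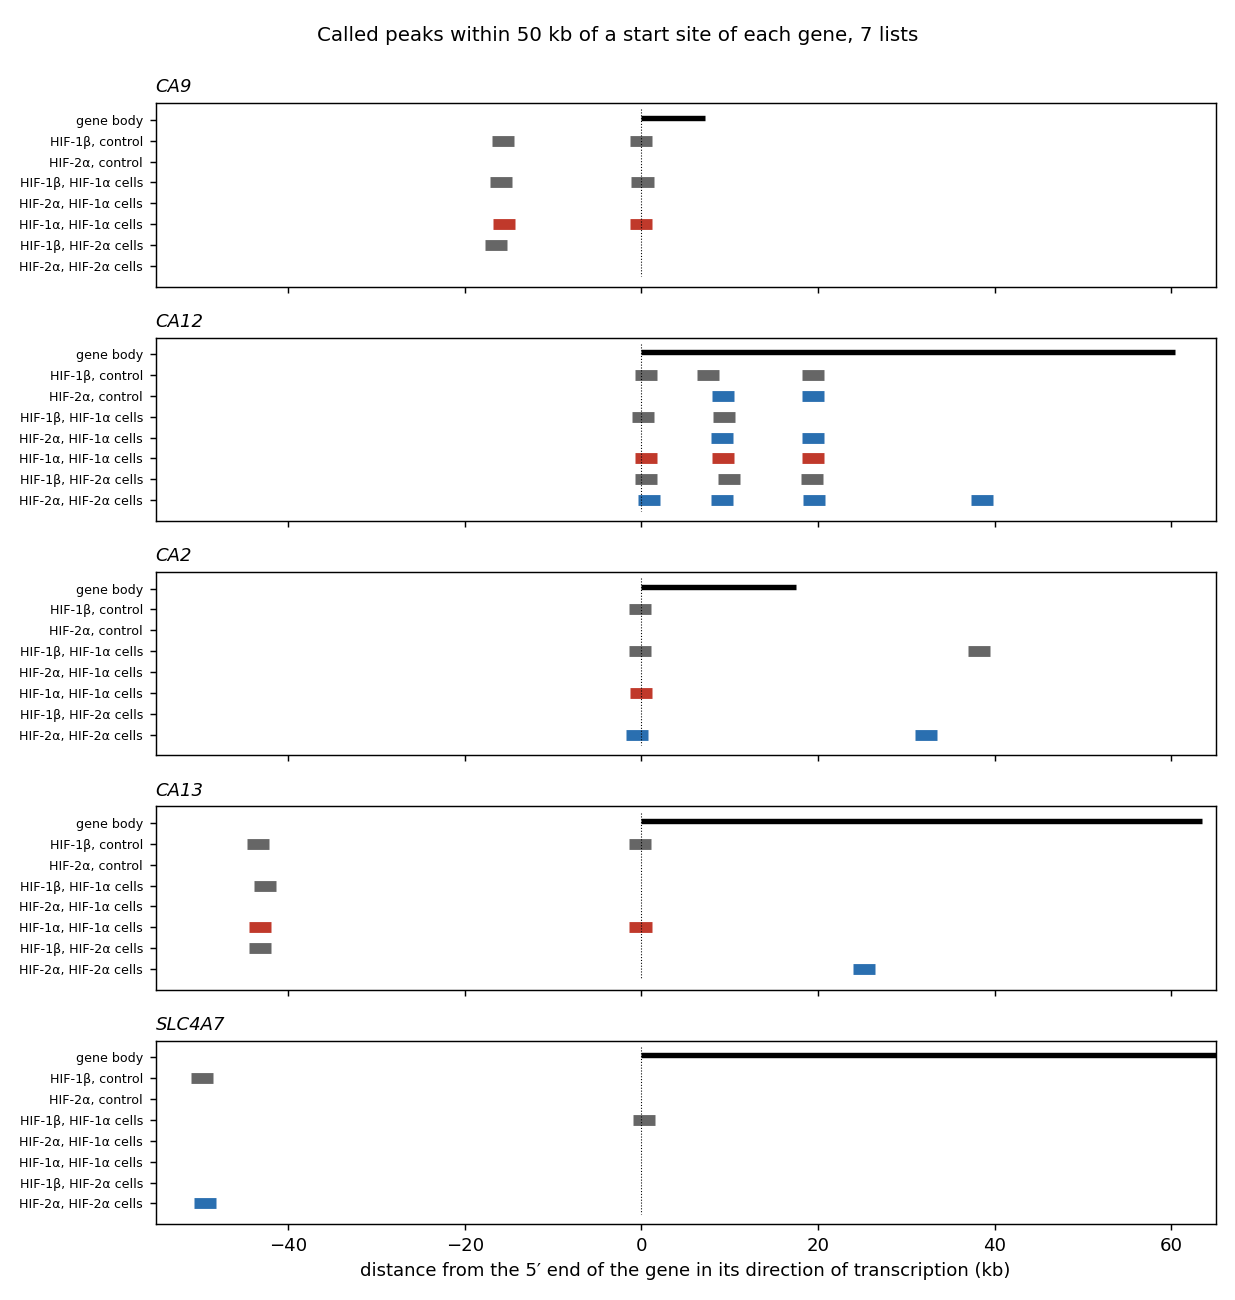
Called peaks within 50 kb of a start site of each gene, drawn as bars 2500 bp wide at their distance in kb from the 5′ end of the gene, with 1 row per list (grey for HIF-1β, red for HIF-1α, blue for HIF-2α), the gene body as a black bar that is cut at the edge of the panel for SLC4A7, and a dotted line at the 5′ end. CA12 carries peaks in all 7 lists, CA9 at its start in 3 lists and none of HIF-2α, and SLC4A7 at its start in 1.

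Library totals ranged from 27852754 to 54287621 counts. Values per library are CPM, counts scaled to a common library size with TMM factors, which compare libraries for 1 gene but not genes of different length. Values are given in the order of replicates 1, 2 and 3. For HIF1A, the gene of HIF-1α, the libraries with HIF-1α held 171.5, 1682 and 472.6 CPM, those with HIF-2α 15.3 to 30.4 CPM, and those labelled control 30.4, 36.7 and 151.6 CPM. The library labelled control replicate 3 therefore stood apart from the other control libraries and near the lowest HIF-1α library, and results that rest on it are given with and without it. For EPAS1, the gene of HIF-2α, the libraries with HIF-2α held 945.9, 3244 and 879.8 CPM. Those with HIF-1α held 575.3, 627.1 and 397.1 CPM, and the control libraries 455.9, 224.2 and 162.1 CPM. EPAS1 was thus higher with HIF-1α than in control cells in 3 of 3 pairs, with overlapping pools. Its log2 fold change there was 0.93 (SE 0.54, adjusted p = 0.365, edgeR). ARNT, the gene of HIF-1β, was at 33.1 to 69.9 CPM throughout. The counts do not part viral from endogenous transcripts, and a pool with fewer infected cells cannot be told apart from one with less RNA per cell. The markers chosen for a renal carcinoma line, PAX8, PAX2, KRT8, KRT18 and VIM, were present in all libraries, from 8.53 CPM upward. Of 4 markers of other cells, HBA1 and HBB, which mark erythroid cells rich in carbonic anhydrases, had no counts, PTPRC had at most 3, and the sum of all 4 was 0.177 to 0.875 CPM in the HIF-1α libraries, 0.140 to 0.265 in the HIF-2α libraries and 0.233 to 0.256 in the control libraries.

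The main comparison used the quasi-likelihood test of edgeR on the 9 libraries with pool as its single factor, and p-values were adjusted over 14225 genes by Benjamini-Hochberg with a threshold of 0.05. It called 0 genes (0.0%) between HIF-1α re-expressing and control cells, 0 (0.0%) between HIF-2α overexpressing and control cells, and 7 genes (0.0492%) between HIF-1α and HIF-2α cells, and none of the 5 genes. At an unadjusted p under 0.05 the same test had 1586 genes higher and 1171 lower in the first comparison and 476 higher and 362 lower in the second, and DESeq2 called 751 and 65. The libraries carry replicate numbers, and same-numbered libraries deviated together, so the fit with the number as a block is given wherever it changes a call. With the block, edgeR called 1132 genes (7.96%), 38 genes (0.267%) and 843 genes (5.93%) in the 3 comparisons. The first count fell to 0 without control replicate 3, to 295 without replicate number 1, to 0 without number 2 and to 1 without number 3. No gene called against control with HIF-1α, in the 5 genes or in the lists, thus kept its call when control replicate 3 alone was left out. The gene called without number 3, a fit that also lacks control replicate 3, was CA9 (adjusted p = 0.0358, edgeR). Of the 5 genes the blocked fit of all libraries called CA9 and SLC4A7 higher in the first comparison, where 5.41% of all genes were called higher and 2.55% lower. It called none in the second, where the shares were 0.112% and 0.155%. In the third it called CA9 and SLC4A7 higher and CA13 lower with HIF-1α than with HIF-2α, where 4.54% of all genes were called higher and 1.38% lower. Both comparisons with control cells use the same 3 control libraries, so their values are not independent.

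Per kilobase of exon, CA12 had the highest mean of the 5 genes in every pool. In control cells its level was 70.7 ± 27.3 CPM per kb (SD, n = 3), followed by CA2 with 33.9 ± 13.8, CA13 with 4.12 ± 1.42, SLC4A7 with 4.04 ± 0.80 and CA9 with 3.02 ± 5.14. The lowest CA12 level, 50.9, lay just above the highest CA2 level, 49.8, whereas the ranges of CA13, SLC4A7 and CA9 overlapped. In HIF-1α re-expressing cells CA9 stood second, at 52.9 ± 53.3 CPM per kb, between CA12 with 79.1 ± 34.7 and CA2 with 25.0 ± 12.04, and its range from 5.29 to 110.5 overlapped both. SLC4A7 followed with 11.96 ± 2.51 and CA13 with 2.65 ± 0.50. In HIF-2α overexpressing cells CA12 reached 150.7 ± 45.8 CPM per kb and CA2 22.9 ± 18.6. SLC4A7 with 5.80 ± 2.34 and CA13 with 5.41 ± 0.79 overlapped there, and CA9 was last with 0.19 ± 0.21.

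**Figure D2:**
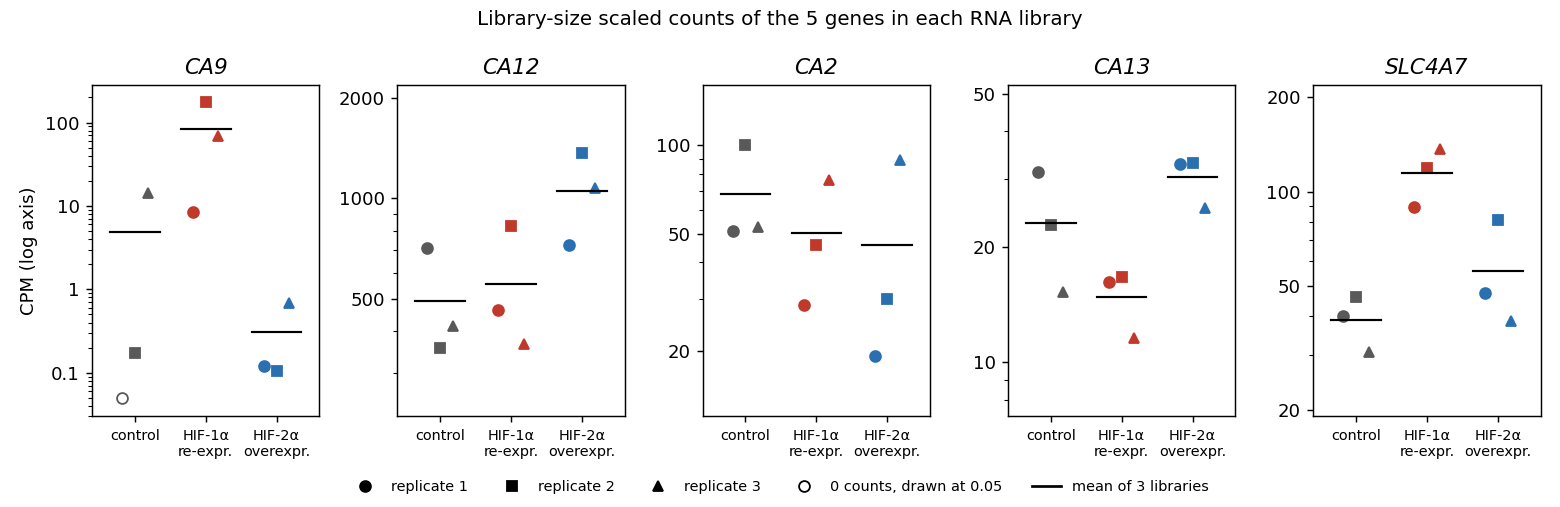
CPM of the 5 genes in each RNA library on log axes, by pool, with circles, squares and triangles for replicates 1, 2 and 3, a bar for the mean of 3 libraries, and an open circle at 0.05 for the library without CA9 counts. CA9 spans from no counts to 176.6 CPM, and the HIF-1α libraries lie above all control libraries for SLC4A7 but not for CA9.

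CA9, the membrane enzyme, had the widest spread of the 5 genes. The libraries with HIF-1α held 345, 6977 and 3670 raw counts of it, the control libraries 0, 6 and 549, and the libraries with HIF-2α 5, 3 and 27. In CPM these were 8.46, 176.6 and 68.3 with HIF-1α, 0, 0.17 and 14.3 in control cells, and 0.12, 0.10 and 0.69 with HIF-2α. The HIF-1α libraries were above the same-numbered control library in 3 of 3 pairs, but control replicate 3 lay above HIF-1α replicate 1, so that the pools overlapped. Control replicate 3 also had the highest HIF1A level of the control libraries, and its part in the result was not tested beyond leaving it out. Within pairs, the ratio in pair 1 was 109-fold when the control count of 0 was set to a floor of 3 counts. The lower limit by the exact 95% counting interval was 88.1-fold. The ratio was 1035-fold in pair 2 (95% exact counting interval 475 to 2820) and 4.78-fold in pair 3 (4.37 to 5.23). Intervals and floors cover counting error only.

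The log2 fold change of CA9 between HIF-1α re-expressing and control cells was 4.13 (SE 1.71, adjusted p = 0.236, edgeR). With the replicate block it was 5.72 (SE 1.36, adjusted p = 0.0427, edgeR). Without control replicate 3 the value was 9.94 (adjusted p = 0.307) without the block and 9.63 (adjusted p = 0.0951) with it, both by edgeR, and over all alternatives the adjusted p ranged from 0.00199 to 0.441. Leaving out replicate number 1 or 2 ended the blocked call, with 5.36 (adjusted p = 0.0820) and 3.61 (adjusted p = 0.184, both edgeR). Without number 3, which also drops control replicate 3, the blocked call remained, with 9.86 (adjusted p = 0.0358, edgeR). Against the HIF-2α overexpressing cells the ranges did not overlap, and the ratios within pairs were 70.3-fold, 1687-fold (95% exact counting interval 577 to 8183, on 3 counts) and 98.5-fold. The log2 difference was 8.06 (SE 2.12, adjusted p = 0.136, edgeR), and 8.85 with the block (SE 1.55, adjusted p = 0.0147, edgeR). Without replicate number 1 the blocked value was 9.09 (adjusted p = 0.0558, edgeR).

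Between HIF-2α overexpressing and control cells the direction of CA9 rested on 1 library. The counts were 5 against 0 in pair 1, 3 against 6 in pair 2 and 27 against 549 in pair 3. The log2 fold change was -3.93 (SE 1.86, adjusted p = 0.837, edgeR), and without control replicate 3 it was 1.89 (adjusted p = 1.000, edgeR). ARHGEF39 overlaps CA9 on the other strand and is also in the count table. The library kit keeps strand, but whether the counting used it is not stated. ARHGEF39 was at 6.30 to 10.3 CPM with HIF-1α, 6.91 to 7.75 with HIF-2α and 5.17 to 12.8 in control cells, with overlapping pools and a log2 fold change with HIF-1α of -0.36 (adjusted p = 0.605, edgeR). Its highest levels were in control replicates 2 and 3, and control replicate 3 also had the highest CA9 level of the control libraries. Over all libraries CA9 was highest in HIF-1α replicates 2 and 3. Whether reads of ARHGEF39 entered the counts of CA9 was not tested.

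CA12, the other membrane enzyme, was at 726.2, 1366 and 1071 CPM with HIF-2α, 712.4, 356.5 and 414.5 in control cells, and 463.8, 828.7 and 367.9 with HIF-1α. Every HIF-2α library lay above every control library, although replicate 1 of each pool differed by little. The ratio of HIF-2α to control was 1.02 in pair 1, 3.83 in pair 2 and 2.59 in pair 3. On the log2 scale the difference was 1.09 (SE 0.39, adjusted p = 0.796, edgeR) and 1.06 with the block (adjusted p = 0.257, edgeR), so it did not pass the test. CA12 was the single gene of the 5 whose HIF-2α and control libraries did not overlap, against 11.2% of all genes tested, 6.0% higher and 5.19% lower. Without control replicate 3 the value was 0.98 (adjusted p = 1.000, edgeR).

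With HIF-1α, CA12 was higher than control in 1 of 3 pairs, with ratios of 0.651, 2.32 and 0.888. On the log2 scale the difference was 0.16 (SE 0.39, adjusted p = 0.842, edgeR), and its sign turned without HIF-1α replicate 2 (-0.28) or control replicate 2 (-0.03). Compared with the HIF-2α overexpressing cells, CA12 was lower with HIF-1α in 3 of 3 pairs, with overlapping ranges and a log2 difference of -0.93 (SE 0.39, adjusted p = 0.334, edgeR), which the block left at -0.98 (adjusted p = 0.142, edgeR).

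CA2, a cytosolic enzyme, was at 51.3, 100.03 and 52.6 CPM in control cells, 28.6, 45.6 and 76.3 with HIF-1α, and 19.2, 29.9 and 88.7 with HIF-2α. In both the HIF-1α and the HIF-2α pool, replicates 1 and 2 lay below the same-numbered control library and replicate 3 above it. On the log2 scale the difference from control was -0.44 with HIF-1α (SE 0.56, adjusted p = 0.690, edgeR) and -0.56 with HIF-2α (SE 0.56, adjusted p = 0.874, edgeR). Between HIF-1α and HIF-2α cells it was 0.13 (SE 0.56, adjusted p = 0.947, edgeR). None of these differences was larger than the spread between replicates. Single libraries moved the value with HIF-2α, to -1.46 without HIF-2α replicate 3 and to -0.18 without control replicate 2, and with the block without number 3 it was -1.59 (adjusted p = 0.0528, edgeR). With HIF-1α the value was between -1.13 and -0.06 over the fits that left out a library or number, the latter without control replicate 2. CA2 overlaps the antisense gene CA3-AS1, which was not analysed here.

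CA13, the other cytosolic enzyme, was at 31.2, 22.8 and 15.2 CPM in control cells, 16.2, 16.7 and 11.6 with HIF-1α, and 32.8, 32.9 and 25.2 with HIF-2α. It was lower with HIF-1α than in the same-numbered control library in 3 of 3 pairs, with ratios of 0.519, 0.732 and 0.760, and higher with HIF-2α in 3 of 3, with ratios of 1.05, 1.44 and 1.65. Neither difference from control passed the test. The log2 fold change was -0.64 with HIF-1α (SE 0.29, adjusted p = 0.263, edgeR), with -0.61 under the block (adjusted p = 0.0742, edgeR), and 0.39 with HIF-2α (SE 0.29, adjusted p = 0.844, edgeR). Without control replicate 3 these differences were -0.87 (adjusted p = 0.307) and 0.16 (adjusted p = 1.000, both edgeR).

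For CA13, every HIF-1α library was below every HIF-2α library, and the ratios within pairs were close to one another, at 0.493, 0.507 and 0.460. The log2 difference was -1.03 (SE 0.29, adjusted p = 0.167, edgeR), and -1.04 with the block (SE 0.19, adjusted p = 0.0176, edgeR). DESeq2 gave -1.06 (adjusted p = 0.0325). Without 1 of the replicate numbers the blocked estimate was between -1.08 and -1.005, and the adjusted p between 0.0651 and 0.118 (edgeR).

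SLC4A7, the bicarbonate importer, was at 89.2, 118.9 and 136.9 CPM with HIF-1α, 40.1, 45.9 and 30.6 in control cells, and 47.5, 81.3 and 38.7 with HIF-2α. Every HIF-1α library was above every control library and every HIF-2α library. Against control the ratios within pairs were 2.22, 2.59 and 4.47. The log2 fold change was 1.56 (SE 0.31, adjusted p = 0.149, edgeR), 1.59 with the block (SE 0.25, adjusted p = 0.0308, edgeR) and 1.54 by DESeq2 (adjusted p = 0.00188). Without control replicate 3, the blocked value was 1.44 (adjusted p = 0.124, edgeR), and leaving out replicate number 2 or 3 also ended the call, with 1.66 (adjusted p = 0.146) and 1.24 (adjusted p = 0.0860, both edgeR). SLC4A7 was the single gene of the 5 whose HIF-1α and control libraries did not overlap, against 24.1% of all genes tested, 12.9% higher and 11.2% lower.

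SLC4A7 has 9616 bp of exon, which put it among the longest of 5 equal classes of genes, and exon length moved with the comparison. The median log2 fold change with HIF-1α under the block was -0.26 in the shortest class and 0.32 in the longest. With offsets for length and GC content and the block, SLC4A7 kept a log2 fold change of 1.23 (adjusted p = 0.0373, edgeR). CA9, in the shortest class with 1598 bp, was at 5.79 in that fit (adjusted p = 0.0444, edgeR). Against the HIF-2α cells, where the medians of the classes ran from -0.05 to 0.09, SLC4A7 was higher with HIF-1α by 1.04 on the log2 scale (SE 0.30, adjusted p = 0.173, edgeR), and by 1.11 with the block (SE 0.25, adjusted p = 0.0360, edgeR). Without 1 of the replicate numbers the blocked adjusted p was 0.0580 to 0.166 (edgeR). With HIF-2α it was above control in 3 of 3 pairs, with a log2 fold change of 0.52 (SE 0.30, adjusted p = 0.842, edgeR).

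Over the 5 genes, then, CA9, CA13 and SLC4A7 did not overlap between HIF-1α and HIF-2α libraries, against 19.2% of all genes tested (10.4% higher and 8.82% lower), whereas CA12 and CA2 did.

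**Figure D3:**
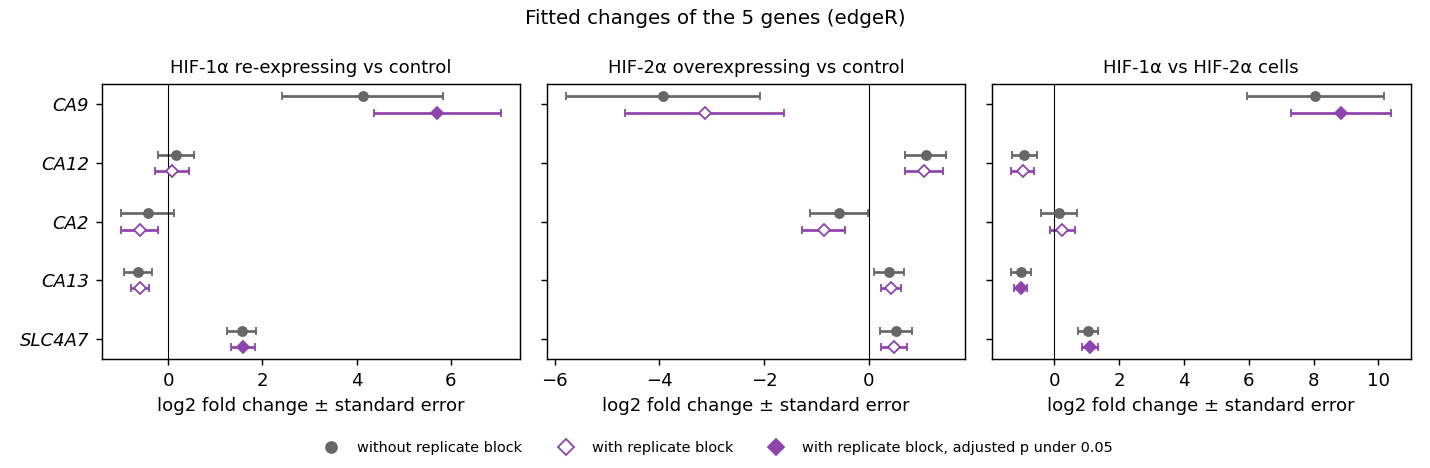
Log2 fold changes with standard errors of the 5 genes in the 3 comparisons, with grey circles for edgeR without the replicate block and diamonds for edgeR with it, filled where the adjusted p was under 0.05. The horizontal axes differ in range. Filled diamonds are CA9 and SLC4A7 against control, and CA9, CA13 and SLC4A7 between HIF-1α and HIF-2α cells.

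CA9 and HIF1A were high in the same libraries. Over the 9 libraries their log2 levels had Pearson's r of 0.93 and Spearman's rho of 0.78. Among 14224 genes ranked by Pearson's r with HIF1A, CA9 was 30th. The 3 HIF-1α libraries and the library labelled control replicate 3 are the 4 highest for both genes, so this description rests largely on the difference between those 4 and the remaining 5. CA12 stood in a like relation to EPAS1, with r of 0.86 and rho of 0.88, and was 66th of 14224 genes ranked by r with EPAS1. CA13 ran against HIF1A with r of -0.82 and against CA9 with r of -0.90. The libraries share pools and replicate numbers, so these values are descriptions and have no p-value.

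**Figure D4:**
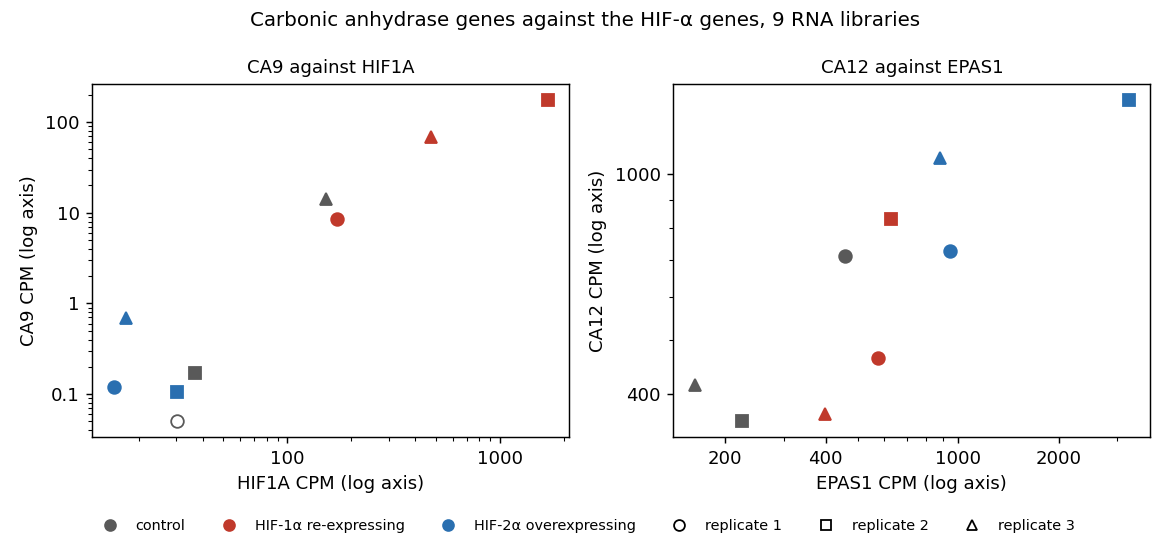
CPM of CA9 against HIF1A and of CA12 against EPAS1 on log axes, 1 point per RNA library, with colours for the pools and shapes for replicates, and the open circle for the library without CA9 counts, drawn at 0.05. Control replicate 3, the grey triangle, lies beside HIF-1α replicate 1 in the left panel, at 14.3 and 8.46 CPM of CA9.

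The genes most like each of the 5 over the 9 libraries were found by Pearson's r of log2 CPM among all genes tested. For CA9 they were ZP1 (0.97), PABPN1 (0.96) and DACT1 (0.96). For CA12 they were LINC-PINT (0.95), SLC2A1 (0.94), which encodes the glucose transporter GLUT1, and SLC6A3 (0.94), which encodes the dopamine transporter. For CA2 they were ZDHHC11 (0.98), EEPD1 (0.94) and HDAC10 (0.88), and for CA13 TMTC4 (0.98), CTSS (0.97) and MPZL1 (0.97). SLC4A7 was most like ATRX (0.99), RLIM (0.99) and PCNX (0.98). Spearman's rho of these pairs ranged from 0.88 to 1.

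Among other genes of acid-base handling, 6 lists were examined, and the main test called none of their members in any comparison, so the calls given for them come from the fit with the replicate block. Of 11 other carbonic anhydrase genes, 3 passed the filter on low counts (CA3, CA5B and CA11) and none was called. CA5B, a mitochondrial enzyme, had the highest mean level of them. It was at 9.76, 9.04 and 11.04 CPM with HIF-1α, 5.95, 5.52 and 5.76 in control cells and 8.62, 7.85 and 6.47 with HIF-2α. The 3 pools did not overlap. Of all genes, 24.1% did not overlap between HIF-1α and control libraries, 11.2% between HIF-2α and control, and 19.2% between HIF-1α and HIF-2α. The share for all 3 pools at once was not counted. With HIF-1α its log2 fold change was 0.79 (SE 0.22, adjusted p = 0.0575, edgeR with the block), and 0.515 with length and GC offsets (adjusted p = 0.141, edgeR with the block).

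Of 9 other SLC4 transporters, 8 were tested. With HIF-1α 1 was called against control and 2 against HIF-2α cells, all lower, where 2.55% and 1.38% of all genes were called lower. SLC4A5, a sodium bicarbonate cotransporter, fell with HIF-1α, from 39.6, 25.2 and 21.0 CPM in control cells to 29.2, 10.4 and 9.90, whereas HIF-2α cells held 47.3, 19.1 and 25.4. Its log2 fold change was -0.93 against control (adjusted p = 0.0427) and -0.97 against the HIF-2α cells (adjusted p = 0.0360, both edgeR with the block), which is opposite in sign to that of SLC4A7. Both calls were lost without any 1 replicate number, and without control replicate 3 the first was -0.97 (adjusted p = 0.147, edgeR with the block). SLC4A10, a sodium bicarbonate transporter best known from neurons, was barely expressed, at 0.0186 to 2.12 CPM, and was lower in HIF-1α than in HIF-2α cells by a log2 difference of -2.01 (adjusted p = 0.0340, edgeR with the block). Without number 2 or 3 that call was lost (adjusted p = 0.140 and 0.123, edgeR with the block), and without number 1 the gene did not pass the filter. Of 9 sodium/proton exchangers of the SLC9A family, all 9 were tested and 1 was called, higher in both comparisons of HIF-1α cells, where 5.41% and 4.54% of all genes were called higher. SLC9A7, an exchanger of the Golgi and endosomes, was at 67.8, 58.2 and 116.1 CPM with HIF-1α, 32.1, 18.3 and 25.2 in control cells and 31.3, 27.1 and 30.8 with HIF-2α. It rose by 1.66 on the log2 scale against control (adjusted p = 0.0278) and by 1.40 against HIF-2α cells (adjusted p = 0.0126, both edgeR with the block). Its libraries overlapped in neither comparison, where 12.9% and 10.4% of all genes lay higher without overlap. SLC9A7, like SLC4A7, is in the longest class by exon length, and with length and GC offsets its change against control was 1.36 (adjusted p = 0.0362, edgeR with the block). The call against control was lost without control replicate 3 (1.49, adjusted p = 0.106), without number 2 (1.64, adjusted p = 0.151) and without number 3 (1.34, adjusted p = 0.0854, all edgeR with the block). The call against HIF-2α cells was lost without number 3 (1.10, adjusted p = 0.0558, edgeR with the block).

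Proton pumps of the V-ATPase, which acidify lysosomes and other compartments, made the list with most calls. Of 25 subunit genes 23 were tested, and with the block 7 fell with HIF-1α against control, where 2.55% of all genes were called lower. The 4 named here are ATP6V1E1, ATP6V1F, ATP6V0B and ATP6V0E1, which are subunits of the catalytic and the membrane part. The 23 genes had a median log2 fold change of -0.33 and 17 were negative, beside a median of 0.04 over all genes. Between HIF-2α overexpressing and control cells 17 were negative as well. ATP6V0B, a subunit of the proton channel, fell from 242.1, 157.5 and 211.3 CPM in control cells to 125.5, 99.8 and 95.7 with HIF-1α, while HIF-2α cells held 212.8, 176.0 and 208.6. Its log2 fold change was -0.92 (SE 0.17, adjusted p = 0.0337, edgeR with the block). ATP6V0E1 was at 287.2, 216.8 and 264.4 CPM in control cells and 140.6, 143.2 and 123.6 with HIF-1α, with -0.91 (adjusted p = 0.0342), ATP6V1E1 was at -0.70 (adjusted p = 0.0418) and ATP6V1F at -0.71 (adjusted p = 0.0427, all edgeR with the block).

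The V-ATPase calls depended on the fit. Without control replicate 3, or without any 1 replicate number, the edgeR fit with the block called none of these subunits against control. DESeq2 without the block called 3 lower, of 751 genes called in either direction, and DESeq2 with the block called 10 lower, of 3025. By exon length, 11 of the 23 genes are in the 2 shortest of the 5 equal classes, so the list does not lie mainly there. With length and GC offsets and the block the median was -0.54, beside -0.33 without the offsets, and 21 of 23 were negative. In that fit 5 were called lower, of 760 genes called in either direction. Of the 4 named subunits, ATP6V0B and ATP6V0E1 kept their calls in that fit, whereas ATP6V1E1 (-0.64, adjusted p = 0.0508) and ATP6V1F (-0.54, adjusted p = 0.0738, both edgeR with the block) did not. Against the HIF-2α cells the median was -0.50 with the block and 19 were negative. ATP6V0B was the 1 subunit called, where 1.38% of all genes were called lower. There DESeq2 called 2 subunits lower, of 650 genes called, and DESeq2 with the block 7, of 1798. With the offsets and the block 4 were called lower, of 1049. Of the 4 named these were ATP6V0B (adjusted p = 0.0101) and ATP6V1F (adjusted p = 0.0432, both edgeR with the block). Between HIF-2α overexpressing and control cells the median was -0.11 with 17 of 23 negative, and -0.05 with 14 negative under the offsets. No gene of any of the 6 lists was called there with the block.

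The remaining lists held no calls. Of 6 lactate and other monocarboxylate transporters and their chaperones, 4 were tested, and BSG, the chaperone basigin, had the highest level. It was at 778.8, 759.8 and 811.2 CPM with HIF-1α, 696.5, 581.7 and 905.4 with HIF-2α and 823.3, 604.1 and 1197 in control cells, with overlapping pools. Of 4 proton-sensing receptors 2 were tested, and neither was called.

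**Figure D5:**
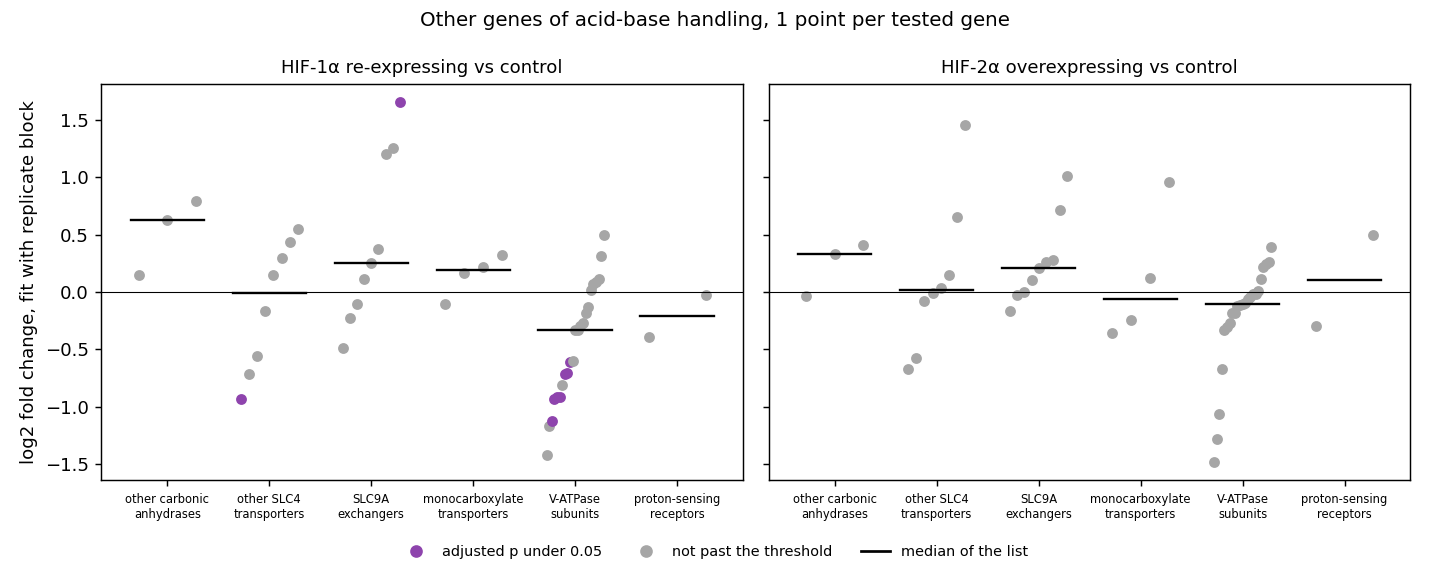
Log2 fold changes from edgeR with the replicate block for the tested genes of 6 lists, 1 point per gene, against control cells for HIF-1α (left) and HIF-2α (right), with purple points for an adjusted p under 0.05 and a bar for the median of each list. On the left, 7 V-ATPase subunits and SLC4A5 are purple below 0 and SLC9A7 above it. On the right no point is purple.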

How the data were processed

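Raw counts per gene symbol and library were deposited, and per the labels and the study's methods they were made with Trim Galore 0.3.3, TopHat2 2.0.8b and Bowtie 1.0.0 on GRCh37 and HTSeq 0.5.4p3 in intersection-strict mode on UCSC genes. The strand setting is not given in the sources used here. The deposited peak lists give positions of 2500 bp windows called by both T-PIC and MACS after alignment with BWA 0.7.5a-r405 and filtered on reads under the peak against background regions. The 3 input samples have no values here.

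Counts were fitted in R 4.3.3 with edgeR 4.0.16 (TMM factors, filterByExpr, quasi-likelihood test, two-sided, Benjamini-Hochberg). Standard errors are the log2 fold change over the square root of F. Whether replicates came from separate infections is not stated, so p-values measure the spread between these libraries. After the pool means were subtracted, correlations across genes were 0.348 to 0.652 over the 9 same-number pairs from different pools and -0.478 to 0.0281 over the 18 other pairs, so the numbers pair the libraries. Replicates of a pool differed far beyond sampling noise (chi-square per degree of freedom of at least 155).

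Alternatives were DESeq2 1.42.0, the replicate block, RLE factors, no filter, 2 pools only, leaving libraries out, and, chosen after seeing the data, DESeq2 with the block, length and GC offsets, and the block without control replicate 3. Distances and lengths used GENCODE v44 lifted to GRCh37. Of 23441 symbols 20654 matched it directly and 1404 by an older symbol, and 96.8% of the genes tested had a length. The HRE core and AP-1 letters were searched on both strands within 150 bp of peak midpoints (Python 3.11.15, pysam 0.24.0). At most 4 genes were named per list, those past the threshold with the block, or else the most abundant one, and 1 gene that this rule would name is not reported here. The edgeR fit, with and without the block, was tested on simulated data for HIF-1α against control. The DESeq2 fits and the fits with offsets were not tested in this way. Members and lists were chosen with earlier results of these data known.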

Additional observations from a re-analysis of the deposited data

Results flagged for a closer look

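Within pairs, CA13 lay on opposite sides of control in the HIF-1α and HIF-2α pools. It was below the same-numbered control library in all 3 pairs with HIF-1α and above it in all 3 with HIF-2α. The difference between these effects, which is the direct comparison of HIF-1α with HIF-2α cells, was -1.03 on the log2 scale (adjusted p = 0.167, edgeR) and -1.04 with the replicate block (adjusted p = 0.0176, edgeR). Both effects use the same 3 control libraries, which at 15.2 to 31.2 CPM overlapped both pools. Neither effect passed the test (adjusted p = 0.263 with HIF-1α and 0.844 with HIF-2α, edgeR). The blocked call between HIF-1α and HIF-2α cells was lost without any 1 replicate number. The share of all genes with such opposite directions in all 3 pairs was not counted.

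SLC4A10 had the same pattern at very low counts, with 27, 6 and 1 counts with HIF-1α, 35, 6 and 3 in control cells and 88, 16 and 9 with HIF-2α. The difference was -1.82 (adjusted p = 0.535, edgeR) and -2.01 with the block (adjusted p = 0.0340, edgeR). In pair 2 the HIF-1α and control libraries held 6 counts each and differed only through library size. Groups of 3 libraries are too small for a check of single outlying values.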

How the results depend on the processing

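The replicate numbers pair the libraries, and the fit with the number as a block raised the counts of genes called by edgeR from 0 to 1132 (HIF-1α against control), from 0 to 38 (HIF-2α against control) and from 7 to 843 (HIF-1α against HIF-2α). Among the 5 genes the block brought 5 results past the threshold, CA9 at 5.72 and SLC4A7 at 1.59 against control, and CA9 at 8.85, CA13 at -1.04 and SLC4A7 at 1.11 between HIF-1α and HIF-2α cells, and it changed no other call of theirs. The cause was not tested. DESeq2 called 751, 65 and 650 genes, with SLC4A7 at 1.54 against control and CA9 at 8.09 and CA13 at -1.06 between HIF-1α and HIF-2α cells past the threshold. DESeq2 with the block called 3025, 487 and 1798 genes. It brought CA9 at 6.96, CA13 at -0.63 and SLC4A7 at 1.56 past the threshold against control, and CA9 at 8.16, CA12 at -1.003, CA13 at -1.07 and SLC4A7 at 1.08 between HIF-1α and HIF-2α cells. The block with length and GC offsets called 760, 34 and 1049 genes, with CA9 at 5.79 and SLC4A7 at 1.23 against control and CA9 at 8.61, CA13 at -1.08 and SLC4A7 at 1.02 between HIF-1α and HIF-2α cells.

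Without the filter on low counts, 1 gene was called for HIF-2α against control and 82 for HIF-1α against HIF-2α. With only the 2 pools compared in the fit, these counts were 2 and 0, and CA9 gave no value for HIF-2α against control because the filter removed it. With 1 library or replicate number left out, 0 to 295 genes were called for HIF-1α against control, 0 to 30 for HIF-2α against control and 0 to 386 for HIF-1α against HIF-2α, where the blocked fits without number 1, 2 and 3 called 334, 386 and 265 and the unblocked fit without HIF-1α replicate 1 called 29. For HIF-2α against control the blocked fit without number 2 called 9. Over the same fits CA9 ranged from 2.96 to 9.94 (9.86 with the block without number 3), SLC4A7 from 1.24 to 1.80 and CA12 from -0.44 to 0.52 for HIF-1α against control. For HIF-1α against HIF-2α, CA9 ranged from 6.88 to 9.47 (8.98 with the block without number 3) and CA2 from -0.31 to 0.995, and for HIF-2α against control CA9 ranged from -5.37 to 1.98 and CA2 from -1.59 to -0.18. CA2 ranged from -1.13 to -0.06 for HIF-1α against control. The block without control replicate 3 called 0 genes for HIF-1α against control, down from 1132, and 7 for HIF-2α against control.

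Among the values of the 5 genes under alternatives, 230 kept their sign and their side of the threshold, 24 came past it and 10 changed sign. CA12 against control with HIF-1α was -0.28 without HIF-1α replicate 2, -0.03 without control replicate 2, -0.44 with the block without number 2 and -0.081 with the block and offsets. CA9 with HIF-2α against control was 1.89 without control replicate 3, 1.98 with the block besides, and 0.88 with the block without number 3. CA2 between HIF-1α and HIF-2α cells was -0.31 without HIF-1α replicate 3, and -0.27 and -0.12 without HIF-2α replicates 1 and 2. None of the 10 passed the threshold. Within 50 kb in place of 10 kb, CA13 had peaks in 5 lists and SLC4A7 in 3. Depth limits CA9 in the control and HIF-2α libraries, where 5 of 6 held 27 counts or fewer, and the ChIP lists carry no counts.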
